A study of Arabidopsis thaliana with 30 samples.

Results

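The JAZ (JASMONATE ZIM-DOMAIN) repressors JAZ1 to JAZ10 of Arabidopsis thaliana were taken by their locus identifiers, which gave 10 of the 32820 genes used. In order these are AT1G19180, AT1G74950, AT3G17860, AT1G48500, AT1G17380, AT1G72450, AT2G34600, AT1G30135, AT1G70700 and AT5G13220. JAZ2 is listed in the files as TIFY10B and JAZ9 as TIFY7. All are protein-coding genes of the TAIR10 annotation, 7 of them on chromosome 1. Of the highest in level, JAZ9 spans chr1:26654529-26657350 on the plus strand, JAZ6 chr1:27273968-27276562 on the minus strand, JAZ2 chr1:28148574-28150446 on the minus strand and JAZ3 chr3:6119707-6123044 on the plus strand. JAZ1 lies at chr1:6621777-6623668 and JAZ5 at chr1:5955155-5957511. JAZ10, at chr5:4218786-4221077, is overlapped on the other strand by AT5G02045, which was listed at 0 in all 30 libraries. Of the 10 genes, 8 reached the mean of at least 1 FPKM over all libraries that was required for testing. JAZ4 and JAZ8 did not. JAZ7 passed although it was below 1 FPKM in 18 of the 30 libraries, and JAZ10 although it was below 1 FPKM in 10. FPKM is the number of sequenced fragments scaled to transcript length and library size, so levels of different genes can be set side by side.

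RNA from systemic leaves was sequenced in 30 libraries that form 10 groups of 3. Plants labelled rbohD gave waterlogged leaves at 60 min and untreated controls at 0 and 60 min. Wild-type plants (WT, the accession Col-0) gave waterlogged leaves at 10, 30 and 60 min and untreated controls at 0, 10, 30 and 60 min. RBOHD encodes a plasma membrane NADPH oxidase that makes extracellular superoxide, and the question posed by the series title is whether systemic responses to waterlogging depend on the wave of reactive oxygen species that this enzyme carries. The allele, the age of the plants and how the soil was flooded are not given in the sources used here. The 3 repeats of a group came from 15 plants, and whether each repeat or all of them together used that number is not stated. The p-values below therefore weigh differences against the spread between these samples within groups, estimated over all 10 groups in the main fit.

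JAZ proteins hold the jasmonate pathway in its off state. Through their Jas domain they bind the transcription factor MYC2 and its relatives, and through their ZIM (TIFY) domain they recruit NINJA and with it the corepressor TOPLESS. When jasmonoyl-isoleucine accumulates, for example after wounding, it joins JAZ proteins to the F-box protein COI1, the JAZ proteins are degraded, and MYC2 becomes active. Most JAZ genes are themselves targets of MYC2, so their transcripts rise with jasmonate signalling in leaves and the new protein restores repression. JAZ1, JAZ2, JAZ5 and JAZ6 form one clade of the family, JAZ3, JAZ4 and JAZ9 another. JAZ7 and JAZ8 carry an EAR motif with which they contact TOPLESS directly. JAZ10 is known for splice forms that lack part of the Jas domain and resist degradation, but the deposited values are per gene and do not separate its 7 annotated transcripts.

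MYC2 binds the hexamer CACGTG, called the G-box, and related forms, so the 250 bases before each annotated gene start were read from the RefSeq TAIR10.1 assembly and searched on both strands. All 10 genes had the same boundaries in the files and in that assembly. CACGTG was found before 4 of the 10 genes, JAZ2, JAZ3, JAZ7 and JAZ8, against 6.49% of 27443 Arabidopsis promoters of that length. CACATG was found before JAZ9 and JAZ10 (2 of 10, against 11.1% of promoters), and CACGTT before JAZ3, JAZ5 and JAZ6 (3 of 10, against 7.54%). GCCGCC, the core of the GCC-box bound by ethylene response factors, was found before 0 of 10, against 1.87% of promoters. Windows of JAZ1 and JAZ4 held none of these letters. The G-box windows of the 3 genes with 1 match are printed to show its surroundings, each 5′ to 3′ on the strand of the gene, with the G-box in capitals.
JAZ2: attaaattaaaaCACGTGttttaaatgtct
JAZ7: aaaagcattttaCACGTGcgtgaagagaaa
JAZ8: gtgtggaaaaaaacattttcCACGTGagag
These stretches lie at chr1:28150495-28150524 on the minus strand for JAZ2, at chr2:14572984-14573013 on the plus strand for JAZ7 and at chr1:10596322-10596351 on the plus strand for JAZ8. The G-box begins 66 bases before the annotated start of JAZ2, 34 before that of JAZ7 and 10 before that of JAZ8. A match describes the letters and is not evidence of a bound site.

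The whole windows of JAZ3 and JAZ10 are printed because JAZ3 held the most matches of any member and was among the least variable, while JAZ10, with 1 variant, was among the most variable. They were thus picked by levels in these data, and a relation between matches and variability was not tested. JAZ1, with no match, varied more than JAZ2, JAZ6 and JAZ9, with 1 match each, and less than JAZ5, with 1 match. Capitals mark the G-box and its 2 searched variants on either strand. The JAZ3 window is chr3:6119457-6119706 and the JAZ10 window chr5:4218536-4218785, both on the plus strand.
JAZ3: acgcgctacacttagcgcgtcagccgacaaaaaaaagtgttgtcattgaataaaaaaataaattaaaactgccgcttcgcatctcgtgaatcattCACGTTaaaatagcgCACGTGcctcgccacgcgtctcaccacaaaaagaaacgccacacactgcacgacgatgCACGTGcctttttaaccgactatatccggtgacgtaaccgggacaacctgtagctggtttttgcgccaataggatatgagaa
JAZ10: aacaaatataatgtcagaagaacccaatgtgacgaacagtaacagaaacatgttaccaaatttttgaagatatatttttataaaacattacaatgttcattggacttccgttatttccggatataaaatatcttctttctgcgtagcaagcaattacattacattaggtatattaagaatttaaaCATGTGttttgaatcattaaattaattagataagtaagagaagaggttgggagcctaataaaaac
The JAZ3 window holds CACGTT and then CACGTG at 140 and at 82 bases before the gene start. The JAZ10 window holds CACATG on the opposite strand, written there as CATGTG.

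The bounds that the authors deposited with each value imply 10.9 to 13.3 M fragments per library. Replicates correlated at 0.988 to 0.993 across genes. The level of RBOHD did not follow the genotype label throughout, since it was 19.99, 21.3 and 21.7 FPKM in the 3 libraries labelled rbohD at 0 min, against 17.5, 17.1 and 17.6 FPKM in WT at 0 min, and 13.0, 11.9 and 15.7 FPKM in waterlogged leaves labelled rbohD at 60 min, against 13.3, 13.5 and 13.8 FPKM in waterlogged WT leaves. It was lower only in the untreated leaves of 60 min, at 12.9, 13.1 and 12.4 FPKM in those labelled rbohD, against 21.2, 24.1 and 24.96 FPKM in WT. RBOHD transcript from a disrupted gene would be counted too, and the part of the gene that is altered is not given. The 5 leaf markers summed to between 30320 and 40825 FPKM in every library. All 5 root markers and all 3 flower markers were below 1 FPKM in every library. The 5 root markers together gave 0.305 to 0.923 FPKM in libraries labelled rbohD, against 0 to 0.0790 FPKM in WT. The highest value of a single root marker was also 0.923 FPKM, so a single marker made up the highest sum. A residual ribosomal RNA locus (AT3G41768) was at 4050 to 5754 FPKM in 10 libraries, the 9 labelled rbohD and replicate 3 of waterlogged WT leaves at 60 min, against 1473 to 2640 FPKM in the other 20. Genotype and this difference between libraries therefore cannot be told apart in comparisons across the label.

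Most of the summed transcript of JAZ1 to JAZ10 came from 4 genes. JAZ9 averaged 102 FPKM over the 30 libraries, JAZ6 50.5, JAZ2 27.3 and JAZ3 18.5 FPKM. These 4 made up between 84.2% and 95.8% of the summed level of the 10 genes in every group. JAZ12, which is outside these 10 genes and described below, was also abundant and is not in this sum. JAZ1 averaged 11.6 FPKM, JAZ5 7.70, JAZ10 3.78 and JAZ7 2.26 FPKM. The least abundant were JAZ8 at 0.612 FPKM and JAZ4 at 0.156 FPKM, and JAZ4 stayed below 1 FPKM in all 30 libraries.

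The lower-level members varied over the widest range. JAZ10 lay between 0.342 and 17.9 FPKM, a ratio of 52.5 between the highest and the lowest library, and JAZ5 between 1.42 and 37.1 FPKM, a ratio of 26.1. JAZ1 followed with a ratio of 16.5. The lowest JAZ10 library rests on about 5.4 implied fragments, so the size of the JAZ10 ratio is uncertain. The ratio was 6.60 for JAZ9, 5.30 for JAZ6, 4.32 for JAZ2 and 3.35 for JAZ3. JAZ7 was listed at 0 in 4 libraries, JAZ8 in 3 and JAZ4 in 2, so no ratio is given for them. The most abundant members were thus the ones with the narrower ranges, and these ratios are descriptions of levels with no test.

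**Figure D1:**
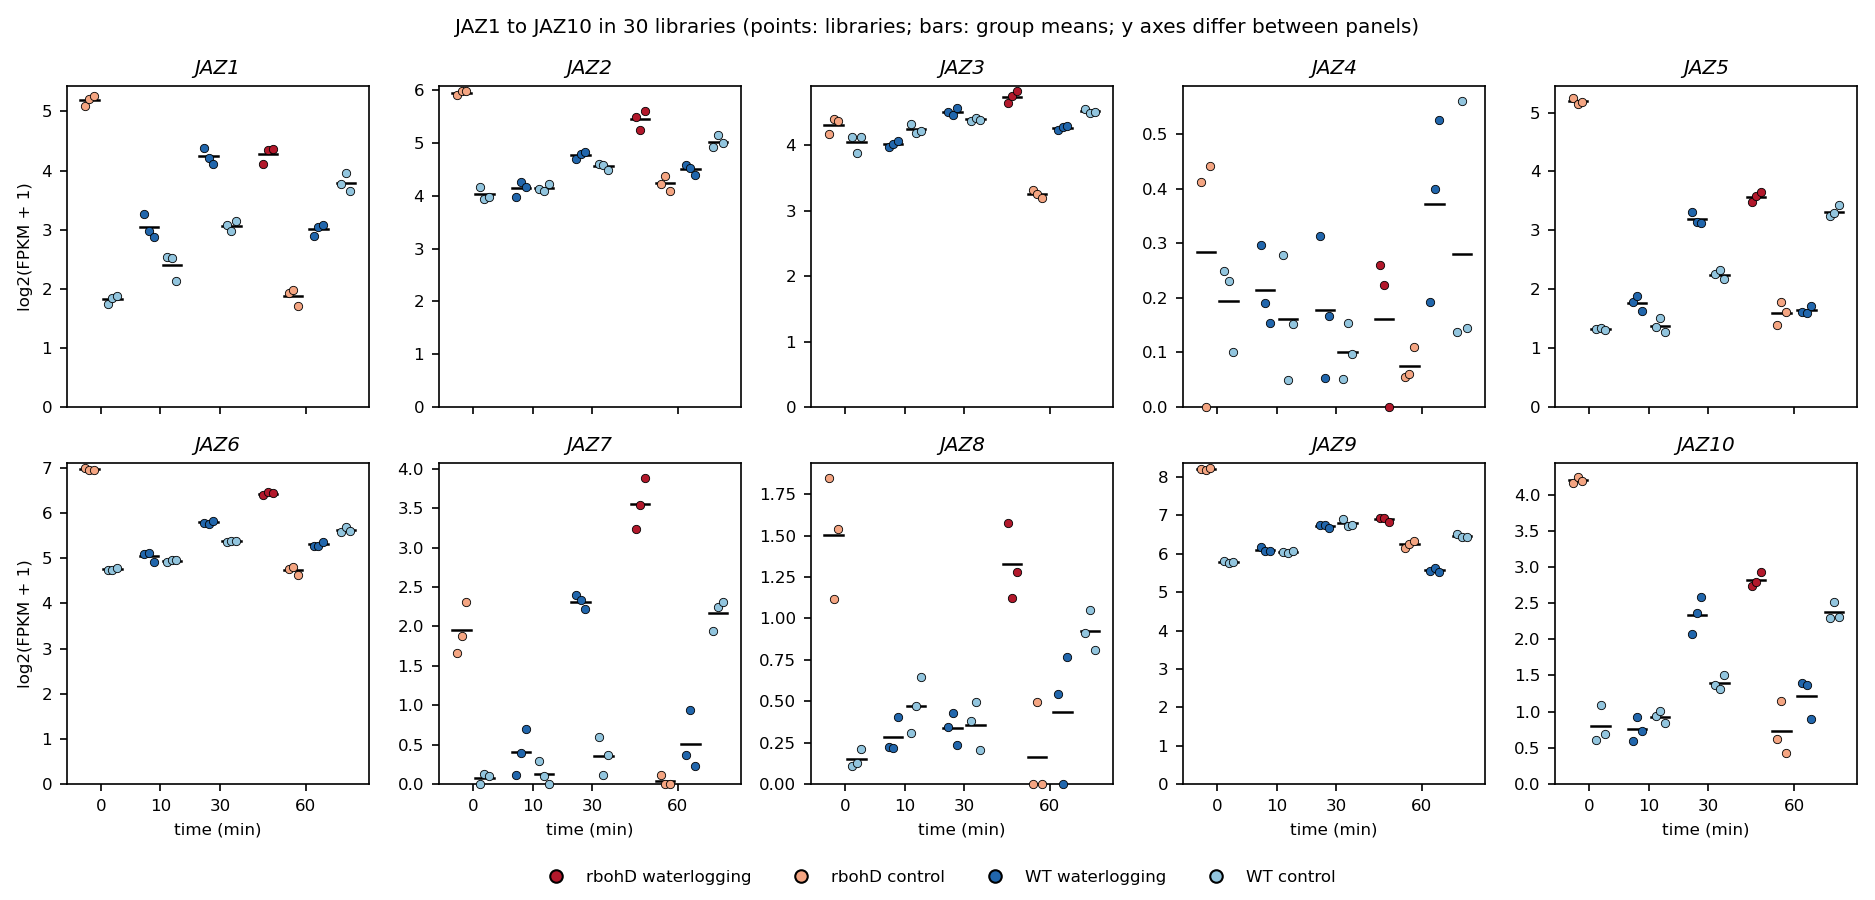
Log2(FPKM + 1) of each JAZ gene (y axis, different in each panel) against time in min, with points for the 30 libraries and bars for group means. The 3 libraries labelled rbohD at 0 min are the highest of all for JAZ1, JAZ2, JAZ5, JAZ6, JAZ9 and JAZ10, while JAZ3 and JAZ7 are highest in waterlogged leaves labelled rbohD at 60 min.

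Summed over the 10 genes, the highest level was in untreated leaves labelled rbohD at 0 min and the lowest in untreated WT leaves at 0 min. The sum was 591 ± 7.41 FPKM in the first, against 116 ± 3.04 FPKM in WT at the same time (SD, n = 3 each). Untreated WT leaves had sums of 116 ± 3.04 FPKM at 0 min, 137 ± 1.78 at 10 min, 207 ± 7.44 at 30 min and 220 ± 4.77 FPKM at 60 min (SD, n = 3 each). The sum therefore increased with the time at which untreated leaves were collected. Waterlogged WT leaves had 143 ± 4.12 FPKM at 10 min, 242 ± 1.64 at 30 min and 137 ± 1.96 FPKM at 60 min (SD, n = 3 each). The 3 libraries of waterlogged WT leaves at 60 min, between 136 and 139 FPKM, lay below the 3 untreated ones of that time, between 216 and 225 FPKM. In leaves labelled rbohD at 60 min the order was the opposite, with 321 ± 6.01 FPKM in waterlogged leaves and 133 ± 4.51 FPKM in untreated ones (SD, n = 3 each). JAZ9 gave between 34.0% and 56.5% of the sum. In bulk leaves, fewer cells that make a transcript and less transcript per cell cannot be told apart.

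**Figure D2:**
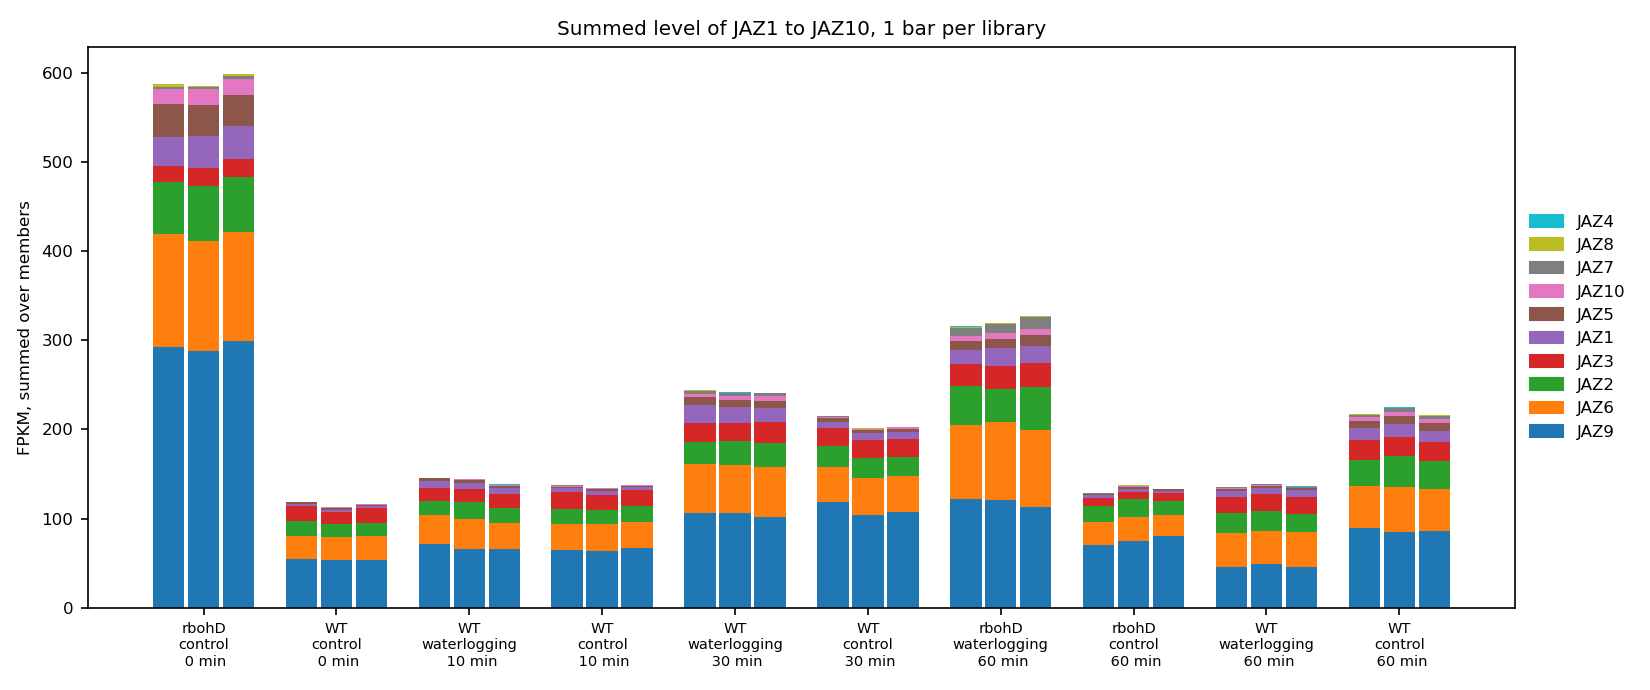
FPKM summed over JAZ1 to JAZ10 (y axis) as 1 stacked bar per library, coloured by gene, with the groups along the x axis. Waterlogged WT leaves at 60 min sit between 136 and 139 FPKM, below untreated WT leaves of that time, and untreated leaves labelled rbohD at 0 min sit between 586 and 599 FPKM.

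The first question was how flooding the roots alters JAZ transcripts in WT leaves against untreated leaves of the same time. Differences are of log2(FPKM + 1), tested with limma and adjusted over the 17491 genes by the Benjamini-Hochberg method at 0.05. At 10 min, JAZ1 and JAZ5 rose and JAZ3 fell, 2 of 8 tested members higher and 1 lower, where 4.14% of all tested genes were higher and 0.863% lower. JAZ1 was at 8.57, 6.91 and 6.34 FPKM in waterlogged leaves, against 4.79, 4.75 and 3.38 FPKM in untreated leaves. JAZ5 was at 2.44, 2.68 and 2.11 FPKM in waterlogged leaves, against 1.57, 1.85 and 1.42 FPKM in untreated leaves. Neither pair of groups overlapped, and the share of all tested genes so separated was not computed. The difference was 0.64 ± 0.11 for JAZ1 (SE, limma adjusted p = 0.000429) and 0.38 ± 0.08 for JAZ5 (SE, limma adjusted p = 0.0044). JAZ3, at 14.8, 15.3 and 15.7 FPKM in waterlogged leaves, against 19.1, 17.3 and 17.7 FPKM in untreated leaves, differed by -0.23 ± 0.06 (SE, limma adjusted p = 0.0409). This small fall of JAZ3 was lost without any single one of the 6 libraries, with limma adjusted p-values of 0.05003 to 0.2296. All 3 calls at 10 min were lost when only the 2 groups compared were fitted, with adjusted p = 0.0976 for JAZ1, 0.0956 for JAZ5 and 0.0914 for JAZ3.

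At 30 min, JAZ1, JAZ5, JAZ6, JAZ7 and JAZ10 rose in waterlogged leaves, 5 of 8 members, and none fell. Among all tested genes 7.78% were higher and 4.10% lower, or 7.42% and 6.79% after quantile normalization. JAZ1 reached 19.9, 17.5 and 16.4 FPKM in waterlogged leaves, against 7.48, 6.84 and 7.86 FPKM in untreated leaves, and JAZ5 reached 8.95, 7.85 and 7.72 FPKM, against 3.78, 3.99 and 3.51 FPKM in untreated leaves. JAZ10 was at 3.19, 4.14 and 5.002 FPKM in waterlogged leaves, against 1.58, 1.48 and 1.84 FPKM in untreated leaves. Every waterlogged library of these genes lay above every untreated one, a separation that was not counted over all tested genes. It also held for JAZ2 and JAZ3, which were not called. The differences were 1.17 ± 0.11 for JAZ1, 0.95 ± 0.08 for JAZ5 and 0.94 ± 0.16 for JAZ10 (SE), with limma adjusted p-values of 2.49e-08, 5.76e-09 and 0.000131. JAZ6, the second most abundant member, was at 54.2, 53.2 and 56.2 FPKM in waterlogged leaves, against 40.0, 40.9 and 40.6 FPKM in untreated leaves, a difference of 0.42 ± 0.05 (SE, limma adjusted p = 6.62e-07).

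JAZ7 was the member closest to an on and off pattern in WT. It had 4.27, 4.03 and 3.65 FPKM in waterlogged leaves at 30 min, against 0.510, 0.0789 and 0.293 FPKM in untreated leaves (limma adjusted p = 2.12e-08). The untreated values correspond to about 1 to 7 fragments each, so the size of this difference depends on the pseudocount. JAZ9 did not pass the test, with 106, 107 and 101 FPKM in waterlogged leaves, against 118, 104 and 107 FPKM in untreated leaves, and the 95% interval of its difference ran from -0.17 to 0.04. JAZ2 and JAZ3 also missed the threshold, with intervals of 0.03 to 0.40 and -0.01 to 0.25. The signed waterlogging effect was higher at 30 than at 10 min for 5 of 8 members, JAZ3, JAZ5, JAZ6, JAZ7 and JAZ10, where 2.40% of all tested genes had a higher and 0.749% a lower effect. For JAZ3 the effect was -0.23 at 10 min and 0.12, not called, at 30 min. Here the call of JAZ3 was lost without any 1 of 9 of the 12 libraries, and those of JAZ5 and JAZ7 were lost with a pseudocount of 0.1.

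At 60 min the direction was the opposite, and all 8 tested members fell in waterlogged WT leaves, where 14.7% of all tested genes were higher and 15.0% lower. JAZ5 was at 2.07, 2.04 and 2.30 FPKM in waterlogged leaves, against 8.45, 8.80 and 9.73 FPKM in untreated leaves. JAZ9 was at 45.8, 48.6 and 45.3 FPKM in waterlogged leaves, against 89.9, 85.1 and 85.6 FPKM in untreated leaves. JAZ1 was at 6.42, 7.29 and 7.50 FPKM in waterlogged leaves, against 12.7, 14.5 and 11.6 FPKM in untreated leaves. No waterlogged library reached the lowest untreated one for any of the 8 genes. How many of all tested genes were separated in this way was not counted. The differences were -1.67 ± 0.08 for JAZ5, -0.89 ± 0.05 for JAZ9 and -0.78 ± 0.11 for JAZ1 (SE), with limma adjusted p-values of 2.39e-13, 2.52e-12 and 8.22e-06. JAZ10 had 1.63, 1.57 and 0.859 FPKM in waterlogged leaves, against 3.92, 4.70 and 3.95 FPKM in untreated leaves (-1.15 ± 0.16, SE, limma adjusted p = 5.17e-06). JAZ7 had 0.296, 0.911 and 0.170 FPKM in waterlogged leaves, against 2.85, 3.75 and 3.96 FPKM in untreated leaves (limma adjusted p = 2.43e-07). The smaller falls were those of JAZ2 (-0.52), JAZ6 (-0.32) and JAZ3 (-0.25). Without replicate 3 of waterlogged leaves, which had the higher ribosomal RNA, 8 members also fell.

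The waterlogging effect at 60 min was lower than that at 30 min for all 8 tested members, against 7.38% of all tested genes with a higher and 10.6% with a lower effect, or 10.3% and 9.89% after quantile normalization. The change between the effects was -2.62 ± 0.12 for JAZ5, -2.10 ± 0.23 for JAZ10 and -1.96 ± 0.16 for JAZ1 (SE), with limma adjusted p-values of 3.96e-14, 2.09e-07 and 1.89e-09. It was smallest for JAZ3, at -0.37 ± 0.09 (SE, limma adjusted p = 0.00554). Set against leaves at 0 min instead, waterlogged WT leaves at 60 min had 6 members higher, 1 lower (JAZ9) and JAZ7 not called, where 17.4% of all tested genes were higher and 19.5% lower. JAZ1, for example, was at 7.07 ± 0.570 FPKM in waterlogged leaves at 60 min and 2.53 ± 0.175 FPKM at 0 min (SD, n = 3 each). Relative to 0 min most members were thus higher, and relative to untreated leaves of the same time they were lower. JAZ10 lost that call without any 1 of 4 of the 6 libraries (limma adjusted p = 0.1359 to 0.1754), JAZ3 lost it without replicate 2 of 0 min (limma adjusted p = 0.08962) and in a fit of the 2 groups alone (limma adjusted p = 0.07421), and JAZ7 gained one without replicate 3 of waterlogged leaves (limma adjusted p = 0.03144).

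The untreated WT leaves were themselves not constant. At 10 min against 0 min, JAZ1, JAZ6 and JAZ9 were higher, 3 of 8 members, where 2.61% of all tested genes were higher and 5.32% lower, or 4.91% and 3.18% after median-ratio scaling. At 30 min, 7 of 8 members were higher and JAZ7 was not called, where 1.93% of all tested genes were higher and 1.98% lower, or 2.82% and 1.17% after median-ratio scaling. At 60 min all 8 were higher, where 6.22% were higher and 6.25% lower. JAZ1 rose in steps, at 2.33, 2.59 and 2.67 FPKM at 0 min, 4.79, 4.75 and 3.38 FPKM at 10 min, 7.48, 6.84 and 7.86 FPKM at 30 min and 12.7, 14.5 and 11.6 FPKM at 60 min. JAZ5 was at 1.50, 1.53 and 1.48 FPKM at 0 min and at 1.57, 1.85 and 1.42 FPKM at 10 min, and then at 3.78, 3.99 and 3.51 FPKM at 30 min and 8.45, 8.80 and 9.73 FPKM at 60 min. JAZ1 was thus called at 10 min and JAZ5 not until 30 min. In a fit of the 2 groups alone, JAZ1 and JAZ6 were not called at 10 min (limma adjusted p = 0.06895 and 0.06759), and JAZ6 also lost its call without any 1 of 4 of the 6 libraries (limma adjusted p = 0.05879 to 0.06614). At 60 min against 0 min the differences were 1.98 ± 0.11 for JAZ1, 1.99 ± 0.08 for JAZ5 and 1.58 ± 0.16 for JAZ10 (SE), with limma adjusted p-values of 5.22e-12, 2.9e-14 and 1.18e-07.

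JAZ9 reached its highest untreated WT level at 30 min. It was at 54.9, 53.3 and 53.8 FPKM at 0 min, 64.7, 63.4 and 66.5 FPKM at 10 min, 118, 104 and 107 FPKM at 30 min and 89.9, 85.1 and 85.6 FPKM at 60 min, so that every 30 min library lay above every other untreated WT library. JAZ7 was at 0, 0.0895 and 0.0762 FPKM at 0 min and at 2.85, 3.75 and 3.96 FPKM at 60 min, with values of at most 0.510 FPKM at 10 and 30 min. JAZ10 was at 0.527, 1.13 and 0.612 FPKM at 0 min, 1.58, 1.48 and 1.84 FPKM at 30 min and 3.92, 4.70 and 3.95 FPKM at 60 min. Its rise at 30 min was the least secure, at 0.60 ± 0.16 (SE, limma adjusted p = 0.0371), and was lost without any 1 of 5 of the 6 libraries. The rise of JAZ3 at 30 min was not called in a fit of the 2 groups alone (limma adjusted p = 0.1168). The untreated leaves of 60 min serve both here and as the reference of the waterlogged leaves, so the rise over time and the fall under waterlogging share those 3 libraries.

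Before any treatment, at 0 min, all 8 tested members were higher in libraries labelled rbohD than in WT, where 16.4% of all tested genes were higher and 16.0% lower. JAZ5 was at 37.1, 34.2 and 35.3 FPKM in leaves labelled rbohD, against 1.50, 1.53 and 1.48 FPKM in WT. JAZ10 was at 16.8, 17.9 and 17.2 FPKM in leaves labelled rbohD, against 0.527, 1.13 and 0.612 FPKM in WT. JAZ1 was at 33.2, 35.9 and 37.1 FPKM in leaves labelled rbohD, against 2.33, 2.59 and 2.67 FPKM in WT. The ratio of mean FPKM was 23.6 for JAZ5, 22.9 for JAZ10 and 14.0 for JAZ1, with the groups far apart. The differences were 3.87 ± 0.08, 3.40 ± 0.16 and 3.37 ± 0.11 on the log2 scale (SE), with limma adjusted p-values of 8.62e-21, 3.49e-14 and 4.93e-17.

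The abundant members differed by less in ratio and by more in level. JAZ9 was at 293, 288 and 299 FPKM in leaves labelled rbohD at 0 min, against 54.9, 53.3 and 53.8 FPKM in WT (2.42 ± 0.05, SE, limma adjusted p = 4.77e-21). JAZ6 was at 126, 123 and 123 FPKM in leaves labelled rbohD, against 25.8, 25.9 and 26.4 FPKM in WT (2.21 ± 0.05, SE, limma adjusted p = 1.44e-20). JAZ2 averaged 60.9 ± 1.67 FPKM in leaves labelled rbohD and 15.4 ± 1.41 FPKM in WT (SD, n = 3 each). JAZ3 stood apart with 17.1, 20.3 and 19.7 FPKM in leaves labelled rbohD, against 16.6, 13.8 and 16.5 FPKM in WT. Its difference of 0.27 ± 0.06 (SE, limma adjusted p = 0.00235) was not called with a term for the ribosomal RNA split (adjusted p = 0.2285) or in a fit of those 2 groups alone (adjusted p = 0.09695). Only replicate 3 of waterlogged WT leaves at 60 min parts that term from the genotype label. The fit with the term therefore cannot separate ribosomal RNA from genotype.

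Over 60 min without treatment, JAZ transcripts in leaves labelled rbohD went the opposite way to WT. All 8 tested members fell, where 10.2% of all tested genes were higher and 13.0% lower, or 14.8% and 9.87% after quantile normalization. JAZ5 had 1.63, 2.45 and 2.05 FPKM at 60 min, against 37.1, 34.2 and 35.3 FPKM at 0 min. JAZ6 had 26.3, 26.9 and 23.8 FPKM at 60 min, against 126, 123 and 123 FPKM at 0 min. JAZ3 had 8.95, 8.52 and 8.19 FPKM at 60 min, against 17.1, 20.3 and 19.7 FPKM at 0 min. The groups were separate for all 8 genes, and the share of all tested genes so separated was not computed. The differences were -3.59 ± 0.08 for JAZ5, -2.24 ± 0.05 for JAZ6 and -1.06 ± 0.06 for JAZ3 (SE), with limma adjusted p-values of 3.76e-20, 1.19e-20 and 4.71e-12.

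The difference between the genotype labels in this time course was tested directly and was negative for all 8 tested members, where 10.6% of all tested genes were higher and 11.5% lower, or 13.8% and 9.94% after quantile normalization. It was -5.59 ± 0.12 for JAZ5, -5.29 ± 0.16 for JAZ1 and -5.04 ± 0.23 for JAZ10 (SE), with limma adjusted p-values of 5.63e-21, 6.38e-18 and 1.75e-14. It was -1.53 ± 0.09 for JAZ3 (SE, limma adjusted p = 3.12e-12). At 60 min the untreated leaves labelled rbohD were below WT for all 8 members, where 19.0% of all tested genes were higher and 19.6% lower. JAZ1, for example, was at 2.81, 2.95 and 2.25 FPKM in leaves labelled rbohD, against 12.7, 14.5 and 11.6 FPKM in WT (-1.92 ± 0.11, SE, limma adjusted p = 1.7e-12). The smallest gap was that of JAZ9, at 70.1, 75.0 and 80.2 FPKM in leaves labelled rbohD, against 89.9, 85.1 and 85.6 FPKM in WT. Its difference of -0.21 ± 0.05 (SE, limma adjusted p = 0.00204) was -0.15 and no longer called with the term for ribosomal RNA (limma adjusted p = 0.3041), nor was it called in a fit of the 2 groups alone (limma adjusted p = 0.05596). Here too, the ribosomal RNA term nearly follows the genotype label, so that fit cannot separate them.

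**Figure D3:**
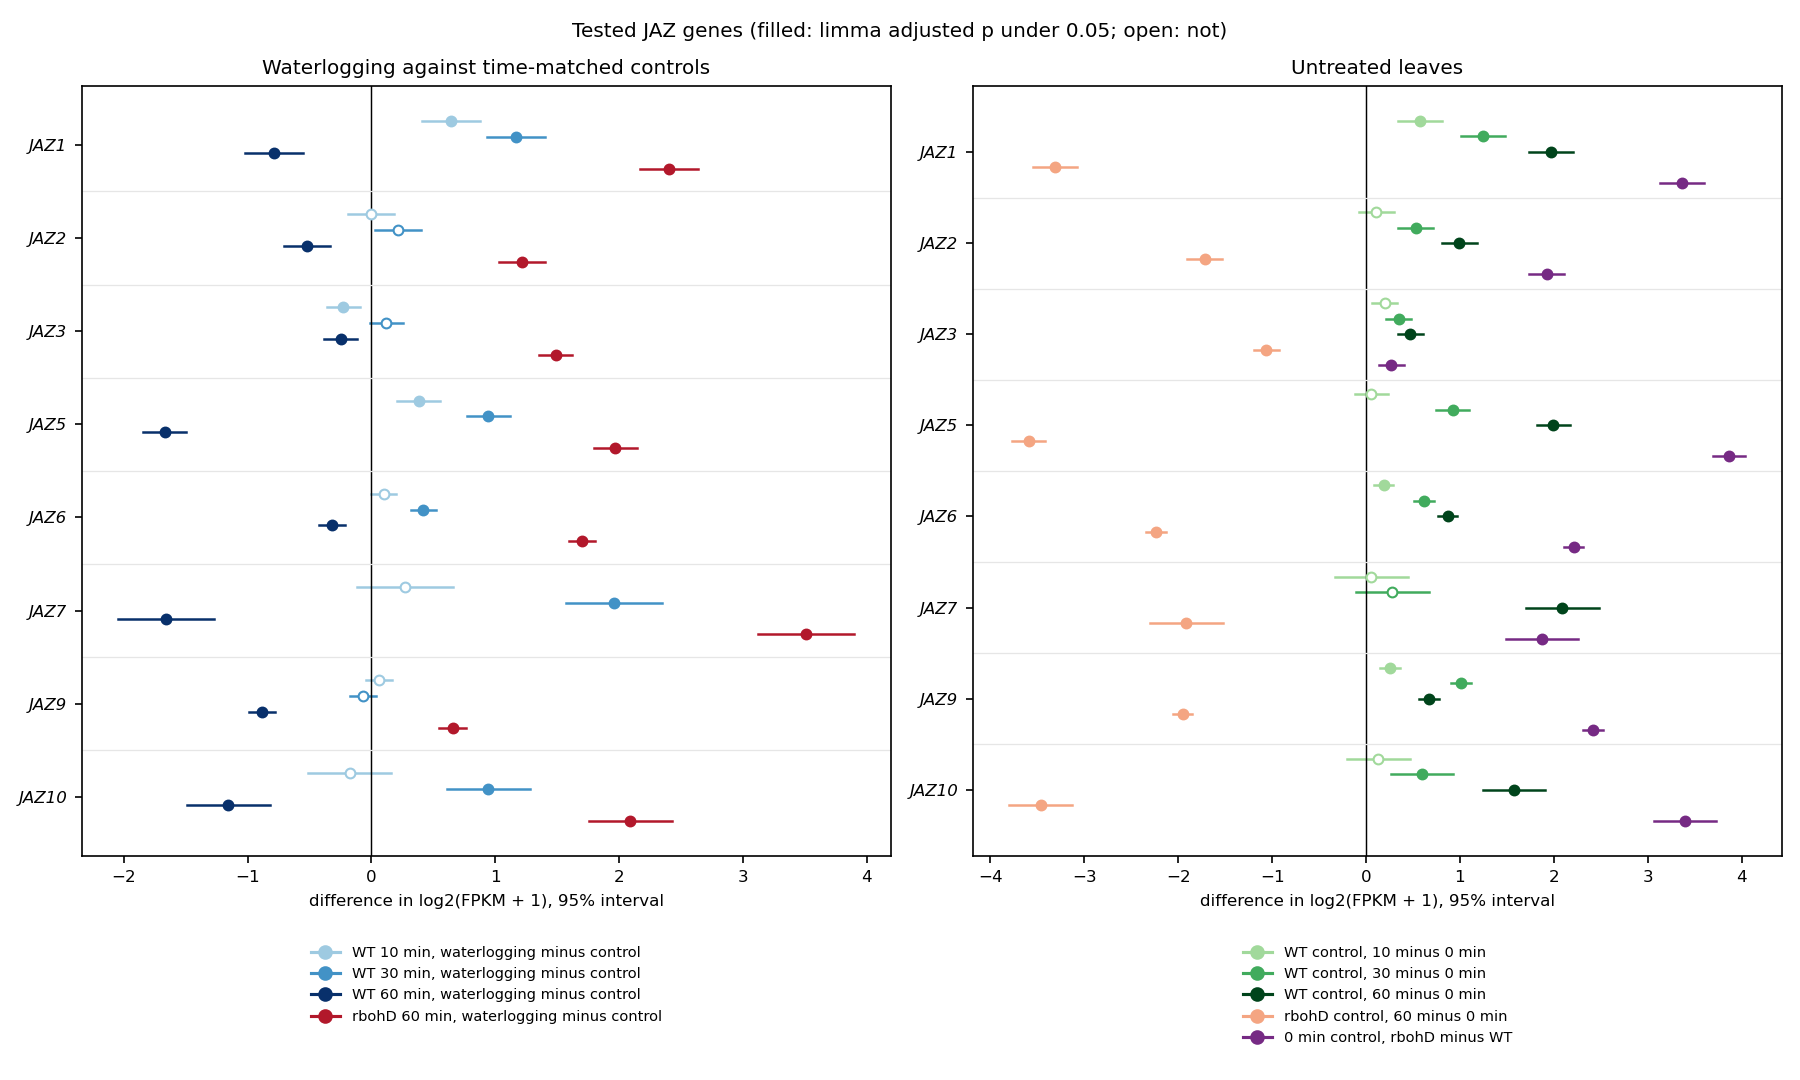
Differences of log2(FPKM + 1) (x axis) for the 8 tested members with 95% intervals from limma, waterlogging against time-matched controls on the left and untreated leaves on the right; filled points passed the test. Waterlogging at 60 min lies below 0 for all 8 members in WT and above 0 for all 8 in leaves labelled rbohD.

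Waterlogging for 60 min had the opposite direction under the rbohD label. All 8 tested members rose in waterlogged leaves labelled rbohD against their untreated leaves of 60 min, where 26.3% of all tested genes were higher and 32.7% lower. JAZ6 was at 83.0, 87.6 and 86.0 FPKM in waterlogged leaves, against 26.3, 26.9 and 23.8 FPKM in untreated leaves. JAZ1 was at 16.3, 19.4 and 19.6 FPKM in waterlogged leaves, against 2.81, 2.95 and 2.25 FPKM in untreated leaves. JAZ3 was at 24.2, 25.9 and 27.4 FPKM in waterlogged leaves, against 8.95, 8.52 and 8.19 FPKM in untreated leaves. Waterlogged and untreated libraries did not overlap for any of the 8 members, a separation that was not counted over all tested genes. The differences were 1.70 ± 0.05 for JAZ6, 2.41 ± 0.11 for JAZ1 and 1.49 ± 0.06 for JAZ3 (SE), with limma adjusted p-values of 8.85e-19, 8.62e-15 and 1.77e-15.

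JAZ5 had 10.1, 10.9 and 11.5 FPKM in waterlogged leaves labelled rbohD, against 1.63, 2.45 and 2.05 FPKM in untreated ones (1.97 ± 0.08, SE, limma adjusted p = 1.37e-15). JAZ10 had 5.68, 5.93 and 6.65 FPKM in waterlogged leaves, against 0.538, 1.22 and 0.342 FPKM in untreated ones (2.09 ± 0.16, SE, limma adjusted p = 8.18e-11). JAZ7 had 8.42, 10.6 and 13.7 FPKM in waterlogged leaves, against 0.0820, 0 and 0 FPKM in untreated ones (limma adjusted p = 8.97e-14), and those 3 waterlogged libraries were its highest in the series. JAZ9, the most abundant member, rose the least, with 122, 121 and 113 FPKM in waterlogged leaves, against 70.1, 75.0 and 80.2 FPKM in untreated ones (0.66 ± 0.05, SE, limma adjusted p = 9.37e-11).

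The difference between these effects, that under the rbohD label minus that in WT, was tested as an interaction at 60 min and was positive for all 8 tested members, where 15.1% of all tested genes were higher and 19.3% lower, or 18.3% and 14.8% after median-ratio scaling. It was 3.64 ± 0.12 for JAZ5, 3.25 ± 0.23 for JAZ10 and 3.19 ± 0.16 for JAZ1 (SE), with limma adjusted p-values of 5.21e-17, 7.28e-11 and 1.68e-13. It was 1.54 ± 0.07 for JAZ9 and 1.74 ± 0.09 for JAZ3 (SE), with limma adjusted p-values of 4.32e-14 and 3.85e-13. This interaction and the one for time in untreated leaves share the untreated 60 min libraries of both labels. Compared directly, waterlogged leaves labelled rbohD at 60 min were above waterlogged WT leaves for all 8 members, where 14.6% of all tested genes were higher and 20.0% lower, or 20.1% and 14.5% after median-ratio scaling. JAZ9, for example, was at 122, 121 and 113 FPKM in leaves labelled rbohD, against 45.8, 48.6 and 45.3 FPKM in WT (1.33 ± 0.05, SE, limma adjusted p = 1.82e-15).

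Set against their own 0 min, waterlogged leaves labelled rbohD at 60 min split the family. JAZ3 and JAZ7 were higher, 2 of 8, and the other 6 were lower, where 23.1% of all tested genes were higher and 31.7% lower. JAZ3 had 24.2, 25.9 and 27.4 FPKM at 60 min, against 17.1, 20.3 and 19.7 FPKM at 0 min (0.43 ± 0.06, SE, limma adjusted p = 5.43e-06). JAZ7 had 8.42, 10.6 and 13.7 FPKM at 60 min, against 2.17, 2.68 and 3.95 FPKM at 0 min (1.60 ± 0.19, SE, limma adjusted p = 1.22e-07). These 2 genes lay in the opposite direction to JAZ9, which had 122, 121 and 113 FPKM at 60 min, against 293, 288 and 299 FPKM at 0 min (-1.30 ± 0.05, SE, limma adjusted p = 3.84e-16).

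The order of the groups was much the same for JAZ1, JAZ2, JAZ5, JAZ6 and JAZ10. Leaves labelled rbohD at 0 min came first for each of them and waterlogged leaves labelled rbohD at 60 min second, though for JAZ1 these second-ranked libraries overlapped with waterlogged WT leaves at 30 min (18.5 ± 1.82 FPKM, against 17.9 ± 1.78 FPKM, SD, n = 3 each). For JAZ6 the order went on with waterlogged WT leaves at 30 min (54.5 ± 1.52 FPKM), untreated WT leaves at 60 min (48.4 ± 2.13 FPKM) and untreated WT leaves at 30 min (40.5 ± 0.468 FPKM, SD, n = 3 each), each apart from the one before. At its lower end, untreated WT leaves at 0 min and untreated leaves labelled rbohD at 60 min overlapped, with 26.0 ± 0.317 and 25.7 ± 1.59 FPKM (SD, n = 3 each). JAZ10 had a wide flat end, where untreated WT leaves at 0 and 10 min, untreated leaves labelled rbohD at 60 min and waterlogged WT leaves at 10 min overlapped with their neighbours between means of 0.696 and 0.908 FPKM.

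Across the 10 group means of log2(FPKM + 1), the correlation of each member with the mean standardised profile of the 8 tested members was 0.985 for JAZ6, 0.979 for JAZ10, 0.971 for JAZ5, 0.970 for JAZ2 and 0.969 for JAZ1. It was 0.866 for JAZ7, 0.854 for JAZ9 and 0.678 for JAZ3. The profile contains each member itself and the groups share libraries of 1 experiment, so these values only describe likeness. The pair most alike was JAZ5 and JAZ10, at 0.987 over 10 groups, and the pair least alike was JAZ3 and JAZ9, at 0.317, although both belong to 1 clade.

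JAZ8 and JAZ4 were too low for the main test and are given by library. JAZ8 was at 2.59, 1.17 and 1.91 FPKM in leaves labelled rbohD at 0 min, against 0.0793, 0.0922 and 0.157 FPKM in WT, and at 1.98, 1.18 and 1.43 FPKM in waterlogged leaves labelled rbohD at 60 min, against 0, 0.410 and 0 FPKM in untreated ones. In waterlogged WT leaves at 60 min it was at 0.458, 0 and 0.702 FPKM, against 0.881, 1.07 and 0.755 FPKM in untreated ones. With no filter on low values, limma called JAZ8 higher in leaves labelled rbohD than in WT at 0 min (adjusted p = 3.914e-06) and in waterlogged than in untreated leaves labelled rbohD at 60 min (adjusted p = 1.156e-05). It called JAZ8 lower in untreated leaves labelled rbohD at 60 min than at 0 min (adjusted p = 6.435e-06) and than in WT at 60 min (adjusted p = 0.002464), and higher in untreated WT leaves at 60 than at 0 min (adjusted p = 0.006251). JAZ8 was not called under waterlogging in WT at 60 min (-0.49 ± 0.18, SE, limma adjusted p = 0.06062). These JAZ8 values rest on at most 29 fragments per library. JAZ4 was between 0 and 0.474 FPKM over all libraries and was called in no comparison without the filter. No difference in JAZ4 was detected.

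The lists of other jasmonate genes were chosen with earlier results of these data known and are described by counts. Of 14 tested genes that make jasmonate, 9 rose and 1 fell in waterlogged WT leaves at 30 min, where 7.78% of all tested genes were higher and 4.10% lower. At 60 min 1 rose and 11 fell, where 14.7% of all tested genes were higher and 15.0% lower. In leaves labelled rbohD, 11 rose and 2 fell under waterlogging at 60 min, where 26.3% of all tested genes were higher and 32.7% lower. At 0 min 13 of the 14 were higher in leaves labelled rbohD than in WT, where 16.4% of all tested genes were higher. Their median difference at 60 min was 1.56 under the rbohD label, against a median of -0.65 in WT, where all tested genes had medians of -0.05 under the rbohD label and 0.01 in WT. LOX2, a chloroplast lipoxygenase at the entry to synthesis, averaged 339 FPKM in waterlogged WT leaves at 30 min and 184 FPKM in untreated ones, and 83.4 FPKM in waterlogged WT leaves at 60 min and 184 FPKM in untreated ones. AOC1, an allene oxide cyclase, averaged 132 FPKM in waterlogged leaves labelled rbohD and 9.11 FPKM in untreated ones (3.72 ± 0.05, SE, limma adjusted p = 3.23e-24).

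Most genes of the turnover list encode enzymes that oxidise or hydrolyse jasmonates or their conjugates. Of 7 tested genes, 4 rose and none fell in waterlogged WT leaves at 30 min (all tested genes: 7.78% higher, 4.10% lower), 5 fell and none rose at 60 min (14.7% higher, 15.0% lower), and 7 rose in waterlogged leaves labelled rbohD (26.3% higher, 32.7% lower). JOX2, a jasmonate hydroxylase, averaged 8.71 FPKM in waterlogged WT leaves at 60 min and 13.3 FPKM in untreated ones, and 51.6 FPKM in waterlogged leaves labelled rbohD and 4.20 FPKM in untreated ones. Of 7 tested output genes, 6 rose in waterlogged WT leaves at 30 min, where 7.78% of all tested genes were higher, and 6 fell at 60 min, where 15.0% were lower. In waterlogged leaves labelled rbohD 6 of the 7 rose, where 26.3% of all tested genes were higher. VSP1, a vegetative storage protein long used as a jasmonate marker, averaged 232 FPKM in waterlogged WT leaves at 30 min and 42.4 FPKM in untreated ones, and 618 FPKM in leaves labelled rbohD at 0 min and 5.61 FPKM in WT.

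The perception and repression list holds genes for proteins that JAZ proteins act with, directly or through other proteins. Of its 10 tested genes, 2 rose and 4 fell in waterlogged WT leaves at 60 min, where 14.7% of all tested genes were higher and 15.0% lower. In waterlogged leaves labelled rbohD 3 rose and 4 fell, near the shares over all tested genes, which were 26.3% higher and 32.7% lower. At 0 min, 5 were higher in leaves labelled rbohD than in WT and 0 lower (all tested genes: 16.4% higher, 16.0% lower). Over 60 min without treatment, 0 rose and 4 fell under the rbohD label (10.2% higher, 13.0% lower). In WT, 2 rose and 3 fell over that time (6.22% higher, 6.25% lower). COI1, the receptor component, had group means between 12.9 and 18.9 FPKM and NINJA, the adaptor, between 20.2 and 28.4 FPKM over the 10 groups. MYC2 averaged 34.2 ± 1.70 FPKM in waterlogged WT leaves at 30 min and 22.6 ± 2.33 FPKM in untreated ones (SD, n = 3 each). At 60 min it averaged 3.94 ± 0.369 FPKM in waterlogged WT leaves and 20.9 ± 0.353 FPKM in untreated ones (SD, n = 3 each), a difference of -2.15 ± 0.09 (SE, limma adjusted p = 4.18e-15). MYC2 was thus lower in waterlogged WT leaves at 60 min than in any other group. Under the rbohD label it averaged 14.4 ± 2.11 FPKM in waterlogged leaves at 60 min and 13.7 ± 0.545 FPKM in untreated ones (SD, n = 3 each) and was not among the called genes, while the JAZ genes rose there. MYC4, a relative of MYC2, fell in both, with a difference of -0.61 in WT and -1.54 under the rbohD label.

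JAZ11 and JAZ12, which form another clade of the family, stayed within a narrower range. Neither was called in waterlogged WT leaves at 10, 30 or 60 min. JAZ12 averaged 74.9 ± 5.27 FPKM in leaves labelled rbohD at 0 min and 51.9 ± 1.69 FPKM in WT (SD, n = 3 each), a difference of 0.52 ± 0.06 (SE, limma adjusted p = 2.29e-07). JAZ12 was also called higher in waterlogged than in untreated leaves labelled rbohD at 60 min, at 65.5 ± 0.770 FPKM and 51.3 ± 4.29 FPKM (SD, n = 3 each), a difference of 0.35 ± 0.06 (SE, limma adjusted p = 2.291e-05), and its interaction at 60 min was 0.47 ± 0.08 (SE, limma adjusted p = 0.0001317). In untreated leaves at 60 min against 0 min JAZ12 differed by -0.54 under the rbohD label (limma adjusted p = 2.039e-07) and by 0.19 in WT (limma adjusted p = 0.03423). These JAZ12 differences had the direction of those of the 8 tested members. JAZ11 had group means between 5.83 and 7.88 FPKM and was called in no comparison. JAZ13 was below the filter.

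**Figure D4:**
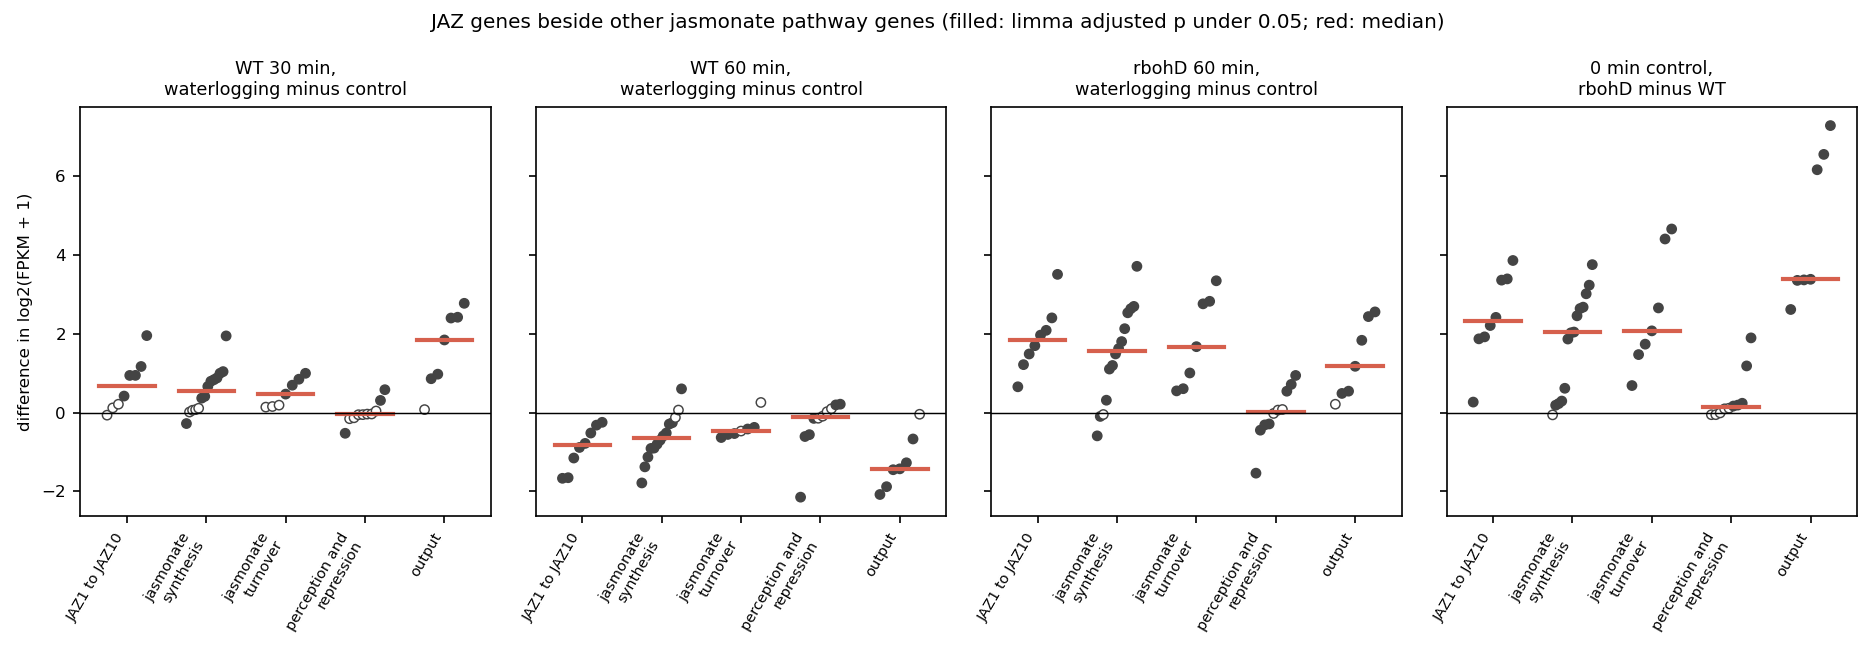
Differences of log2(FPKM + 1) of the tested genes in each jasmonate list beside JAZ1 to JAZ10, in 1 panel per comparison; points are genes, filled where they passed the test, and bars are medians. Most genes of synthesis, turnover and output lie on the same side of 0 as the JAZ genes at 60 min, below 0 in WT and above 0 under the rbohD label. The perception and repression genes lie on both sides at that time.

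Outside the family, the genes whose 10 group means were most like the mean standardised JAZ profile were AT3G51450 (r = 0.979 over 10 groups), JOX2 (0.976), AOC1 (0.975), AOS (0.970), AT1G31550 (0.969), ILL6 (0.969), AOC2 (0.962) and AT5G02940 (0.962). Of these 8 genes, 5 belong to the synthesis and turnover lists, which hold 14 and 7 of the 17491 tested genes. Those lists were chosen with earlier results of these data known. AOS, the allene oxide synthase, averaged 456 FPKM in leaves labelled rbohD at 0 min, against 124 FPKM in WT, and 137 FPKM in waterlogged WT leaves at 60 min, against 207 FPKM in untreated ones.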

How the data were processed

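Each library's deposited table has Cufflinks columns and holds FPKM per gene with confidence bounds, per the file headers; the authors had scaled these FPKM values to gene length and library size. The submitters' processing notes name TAIR10, Trim Galore 0.6.7, HISAT2 2.2.1, Cufflinks 2.2.1 and Cuffdiff, without roles. Strand use is not given in the sources used here. From 32826 rows, 2 duplicated identifiers and 2 genes with a failed status in a library were dropped. Low values came out as whole fragments (within 0.05) in only 49.4% to 53.1% of cases, so counts were not recovered and the planned count models were not run.

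Genes averaging 1 FPKM or more were taken as log2(FPKM + 1), and 1 linear model with a mean per group was fitted to the 30 libraries (limma 3.58.1, R 4.3.3, default eBayes, residual df 20, two-sided). Benjamini-Hochberg adjustment at 0.05 ran within each of 17 comparisons. The script was tested on simulated data. The members and gene lists were chosen with earlier results of these data known. All 10 members are named; other lists name up to 4 called genes per comparison, the most changed above 5 FPKM on average, plus JAZ11 and the values of COI1 and NINJA, chosen after their values were seen. Gene identifiers matched the RefSeq table of TAIR10.1 for 99.1%. Implied fragments take the half-width of the confidence bounds as 2 Poisson SD. Alternatives were a pseudocount of 0.1, no filter, a 5 FPKM filter, quantile normalization, median-ratio scaling, a replicate block, trend and robust options, a ribosomal RNA term, only the groups compared, and each library left out. Tables were made with Python 3.11.15 (pandas 2.3.3; numpy 2.4.6) and drawn with matplotlib 3.10.9.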

Additional observations from a re-analysis of the deposited data

Results flagged for a closer look

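The effect of waterlogging at 60 min differed between the genotype labels for all 8 tested members, by limma's test of the interaction. The rbohD effect minus the WT effect was 3.19 for JAZ1, 1.74 for JAZ2, 1.74 for JAZ3, 3.64 for JAZ5, 2.02 for JAZ6, 5.17 for JAZ7, 1.54 for JAZ9 and 3.25 for JAZ10 on the log2(FPKM + 1) scale. The change of untreated leaves over 60 min also differed between the labels. That of rbohD minus that of WT was -5.29 for JAZ1, -2.71 for JAZ2, -1.53 for JAZ3, -5.59 for JAZ5, -3.10 for JAZ6, -4.00 for JAZ7, -2.63 for JAZ9 and -5.04 for JAZ10. In WT the waterlogging effect at 60 min minus that at 30 min was -1.96 for JAZ1, -0.73 for JAZ2, -0.37 for JAZ3, -2.62 for JAZ5, -0.74 for JAZ6, -3.61 for JAZ7, -0.82 for JAZ9 and -2.10 for JAZ10. The effect at 30 min minus that at 10 min was 0.34 for JAZ3, 0.56 for JAZ5, 0.32 for JAZ6, 1.69 for JAZ7 and 1.12 for JAZ10. The JAZ7 values include groups with libraries at or near 0 and depend on the pseudocount.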

How the results depend on the processing

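Of 279 recomputed counts of members called, 274 stayed within 1.5 times the reported count, and none of 2198 recomputed member differences changed direction among called values. The exceptions were waterlogged WT leaves at 10 min with only the groups compared fitted (0 members, reported 3, all 3 at an unadjusted p under 0.05), at 30 min with a mean of at least 5 FPKM (3, reported 5, since JAZ7 and JAZ10 are below that filter), the effect at 30 against 10 min with a pseudocount of 0.1 (3) or a mean of at least 5 FPKM (3, reported 5), and untreated WT leaves at 10 against 0 min with only the groups compared (1, reported 3). Leaving out single libraries gave 2 to 3 members for waterlogging at 10 min and 4 to 5 for the effect at 30 against 10 min. Calls of single members were lost in 48 and gained in 10 of the recomputed differences. Replicate numbers were shared in the labels, but in no comparison were the deviations of all 3 same-numbered pairs correlated above 0.1, the limit set for pairing, although all 3 were above 0 in some, so the numbers were not taken to pair the samples. With the replicate block, the counts of members called were as reported in all 17 comparisons (for example 8 in waterlogged WT leaves at 60 min) and all tested genes called went to 5099, against 5196. Each sample correlated best with its own number in 2 of 13 comparisons. No scaling moved the median of all genes by more than 0.0579. Few fragments lie behind JAZ4, JAZ7 and JAZ8, and count models were not run on FPKM.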
